A study of Mus musculus with 7 samples.

Results

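The Toll-like receptor genes are taken here as 10 of the 22367 protein-coding genes of the mouse annotation: the receptors Tlr1, Tlr2, Tlr3, Tlr4, Tlr5, Tlr6 and Tlr9, the co-receptors Cd14 and Ly96, and the adaptor Myd88. Their peaks were chosen by position alone, as those of the 6 PU.1 and MITF lists with a centre in a gene or within 30 kb of either end on mm9, whatever their score. This gave 82 of 76243 PU.1 peaks in myeloid precursors (MPs), 84 of 71941 after 36 h of RANKL and 96 of 77072 in osteoclasts (OCs), and 12 of 5413, 6 of 3540 and 11 of 4443 MITF peaks. The cells were bone marrow myeloid cells of C57BLACK6 mice aged 4 to 6 weeks. All were grown for 3 days with 50 ng/mL CSF1. MPs received no RANKL, and the other cells were treated with 100 ng/mL RANKL for 36 h, or for 72 h to give OCs. Chromatin was precipitated with 5 µg of antibody to PU.1 or MITF at each time, and with non-specific IgG in MPs only. ChIP-Seq gave 1 library per condition, 7 in all, so every comparison between times below sets 1 library against another. Where a test was made, it allowed for counting noise only. Variation between cultures or precipitations of the same condition was not measured. How many animals were pooled per library is not given in the sources used here.

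Toll-like receptors recognise microbial molecules. At the cell surface Tlr2 pairs with Tlr1 or Tlr6 to bind bacterial lipoproteins. Tlr4 with its partner MD-2 (the product of Ly96) and with Cd14 responds to lipopolysaccharide, Tlr5 binds flagellin, and Tlr3 and Tlr9 read double-stranded RNA and CpG DNA in endosomes. Myd88 carries the signal of all of these receptors except Tlr3. PU.1 is the ETS factor of the myeloid lineage and MITF a basic helix-loop-helix factor that works with it in osteoclasts. Tlr1, Tlr2, Tlr4, Tlr6, Cd14 and Ly96 were grouped as receptors and co-receptors of the macrophage surface, and Tlr3, Tlr5, Tlr9 and Myd88 as the rest.

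PU.1 binds a purine-rich core, for which GAGGAA was searched here on both strands (TTCCTC on the reverse). The sites below were the highest PU.1 site of each gene in at least 1 library, and they are shown because the comparison of leading sites below turns on them. The 3 such sites of Cd14 are not printed. Each line gives 30 bases of mm9 around the GAGGAA nearest to the peak centre, on the strand that reads GAGGAA, with those letters in capitals.

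Tlr2, intron, 2115 bp downstream of the start, chr3:83643561-83643590, plus strand: agaggacaatttGAGGAAgccagttctctc
Tlr6 and Tlr1, intergenic, 882 bp upstream of the Tlr6 start, chr5:65352151-65352180, plus strand: ttctgctttcggGAGGAAacgaagaagaac
Tlr4, 5′ UTR, 86 bp downstream of the start, chr4:66488717-66488746, minus strand: actatattcaaaGAGGAAgtgagagtgcca
Ly96, intergenic, 85 bp upstream, chr1:16678456-16678485, plus strand: tgcaaataaaaaGAGGAAgcagttggatgg
Tlr5, intergenic, 26075 bp upstream, chr1:184858834-184858863, minus strand: tccctgagaaaaGAGGAAgtggggaaagtg
Tlr3, intergenic, 4627 bp upstream, chr8:46500493-46500522, plus strand: ctttcaaggagaGAGGAActggcatgttcc
Tlr9, site centred 1 bp upstream, chr9:106124929-106124958, minus strand: tctcagagaattGAGGAAgtgacactttca
Tlr9, intergenic, 22497 bp upstream, chr9:106102449-106102478, minus strand: tggaggaaaaaaGAGGAAgcgaaatggctt
Myd88, intergenic, 5548 bp downstream of the start, chr9:119243577-119243606, plus strand: gatccaaggaaaGAGGAAgccgtggggacc

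Of the 13 leading sites, the 3 of Cd14 included, 12 held GAGGAA within 100 bp of the centre. No share was computed for equally high peaks elsewhere. The leading site without GAGGAA was the intergenic site 29623 bp downstream of the Tlr2 start. It held an ETS-IRF composite element, the ETS core GGAA followed after 2 bases by GAAA, the core of an interferon regulatory factor (IRF) site. This element was searched for only after the Tlr2 sequence had been read. It stood also in the site 22497 bp upstream of Tlr9, where it overlaps GAGGAA. Both are printed with the composite element in capitals.

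Tlr2, 29623 bp downstream of the start, chr3:83616054-83616083, plus strand: aggaacaaaaGGAAGTGAAActacttcttc
Tlr9, 22497 bp upstream, chr9:106102445-106102474, minus strand: ggaaaaaagaGGAAGCGAAAtggcttgagg

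Over all 96 member peaks of the PU.1 OC list, 63 held GAGGAA within 100 bp of the centre on either strand (65.6%, exact 95% interval 55.2 to 75%), and 58.7% of all 77002 OC peaks on assembled chromosomes did. The composite element was found in 8 of the 96 (8.3%, interval 3.7 to 15.8%) and in 6.95% of all peaks. The AP-1 letters TGANTCA were found in 15 (15.6%, interval 9.0 to 24.5%) against 10.5% of all. The E-box CANNTG, the class of sequence that MITF binds, was found in 61 (63.5%) against 63.0%. Among E-boxes, CATGTG stood in 9 member peaks (9.4%, interval 4.4 to 17.1%) against 14.4% of all, and CACGTG in 1 (1.0%, interval 0.0 to 5.7%) against 3.29%. All 6 intervals held the share of all peaks. For these 6 sequences the member peaks were thus not distinguishable from the whole list at this number of peaks.

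PU.1 peaks were found at all 10 genes in all 3 libraries, where 80.5% of protein-coding genes in MPs, 80.0% at 36 h and 80.5% in OCs had at least 1. What set the genes apart from the typical gene was the amount. A peak's score is its tag number after HOMER's scaling for library size, and the score summed over a gene's peaks had a median over all genes of 125 in MPs, 118 at 36 h and 131 in OCs. All 10 members were above that median in each library. Above the 90th percentile of all genes (551, 486 and 537) stood 5 members in MPs, 4 at 36 h and 5 in OCs. A lower score from a mixed culture can mean fewer cells with the site bound or less binding per cell, and these cannot be told apart. The IgG library had 349 peaks, none of them at a member, and no member peak of any list overlapped an IgG peak. The lowest IgG score listed was 22.4, so a weaker background is not visible in that list.

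At the lipoprotein receptors the scores were high and close between the libraries. Tlr2 (chr3:83640195-83645689, minus strand) had a summed score of 691 over 8 peaks in MPs, 668 over 11 at 36 h and 712 over 11 in OCs. Relative to their size, these sums differed less between the libraries than the all-gene medians did. Tlr1 (chr5:65316050-65324000, minus strand) had 537, 475 and 514 over 6, 7 and 9 peaks. Tlr6 (chr5:65344345-65351287, minus strand) had 531, 449 and 459.6 over 6 peaks in each library. Tlr1 and Tlr6 are neighbours whose windows overlap, and they are not independent: 5 sites, their highest among them, were counted for both.

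That shared site, 882 bp upstream of Tlr6, was the highest of all member sites, with scores of 293, 271 and 251 in MPs, at 36 h and in OCs. Only 0.195%, 0.139% and 0.223% of all peaks in these lists scored as high. It made up 55.3%, 60.2% and 54.6% of the summed score of Tlr6. Tlr2 was spread over more sites. Its intronic site 2115 bp downstream of the start scored 166, 170.0 and 181, the site 29623 bp downstream scored 205, 104 and 128, and an intergenic site 14073 bp upstream scored 106, 135 and 107. The intronic site was level across the libraries, the distal downstream site was highest in MPs, and no PU.1 peak of any library lay within 1 kb of the Tlr2 start.

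The receptor for lipopolysaccharide and its partners gave the widest spread. Tlr4 (chr4:66488618-66591318, plus strand) had a summed score of 715 over 14 peaks in MPs, 477 over 13 at 36 h and 702 over 17 in OCs. Its score was lowest at 36 h and alike in MPs and OCs. The annotated span of Tlr4 is 102.7 kb because of 1 long transcript, and its window of 162.7 kb was the widest of the 10. The site at the start, centred in the 5′ UTR, scored 225, 209.9 and 217, so that most of the lower sum at 36 h arose at other sites. An intronic site 15870 bp downstream scored 154, 84.3 and 106, and a site 4921 bp upstream was listed at 54.6 in MPs and 32.3 in OCs and not at 36 h. A site 3088 bp downstream was listed only in OCs, at 41.1.

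Cd14 (chr18:36884728-36886390, minus strand) had the highest sums of the 10 genes, 955 over 13 peaks in MPs, 836 over 14 at 36 h and 1016 over 15 in OCs. No single site carried it: the highest made up 20%, 16.6% and 13.1% of the sum and was a different site in each library. The site at its start, in the 5′ UTR, scored 98.9, 85.7 and 91.0. The highest in MPs lay 17765 bp downstream and scored 191, 90.2 and 115, lower in both RANKL libraries than in MPs. A site 1085 bp upstream went the other way, with 49.5, 72.4 and 92.5. The window of Cd14 holds the starts of 4 other protein-coding genes (E230025N22Rik, Ik, Ndufa2 and Tmco6), and 4 of its 15 sites were nearest to the start of Cd14 itself.

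Ly96 (chr1:16678537-16699686, plus strand) had the lowest sums of its group, 348 over 10 peaks in MPs, 186 over 7 at 36 h and 242 over 9 in OCs. Its highest site, 85 bp upstream of the start, scored 108, 84.3 and 88.1, and was the weakest leading site among the 10 genes in each library. The intronic site 14538 bp downstream scored 81.9 in MPs, 23.7 at 36 h and 32.3 in OCs. The score there was highest in MPs, and only the difference between MPs and 36 h was called in the test below.

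Among the rest, Tlr5 and Tlr9 had the highest sums. Tlr5 (chr1:184884919-184906175, plus strand) had 696 over 8 peaks in MPs, 721 over 9 at 36 h and 634 over 9 in OCs. Its sites 26075 bp and 938 bp upstream scored 249, 194 and 198, and 193, 163 and 160.1. A site 9960 bp upstream scored 125, 151 and 76.4, and was lowest in OCs. Another site, 3272 bp upstream, was not listed in MPs and scored 41.4 at 36 h and 47.0 in OCs. All 10 Tlr5 sites were nearest to its own start.

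Tlr9 (chr9:106124929-106129207, plus strand) had a summed score of 657 over 10 peaks, 629.7 over 8 and 614 over 9. The site at its start scored 217, 179 and 173, and the site 22497 bp upstream scored 159, 180.3 and 103. That upstream site lay nearer to the start of Ppm1m, and only 3 of the 10 sites were nearest to that of Tlr9. Tlr3 (chr8:46481019-46495962, minus strand) had the lowest summed scores of the 7 receptors, with 253 over 5 peaks, 272 over 5 and 319 over 6. Its leading site, 4627 bp upstream, scored 128, 135 and 149.8. The adaptor Myd88 (chr9:119245052-119250529, minus strand) had 363 over 5 peaks, 446 over 8 and 413 over 9, of which its site 5548 bp downstream of the start gave 213, 229 and 194. Myd88 was the gene with the fewest sites listed in every library, 4 of 11. A site in an intron of the neighbouring Acaa1a, 3267 bp upstream of the Myd88 start, was not listed in MPs and scored 41.4 and 42.6 in the RANKL libraries.

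**Figure D1:**
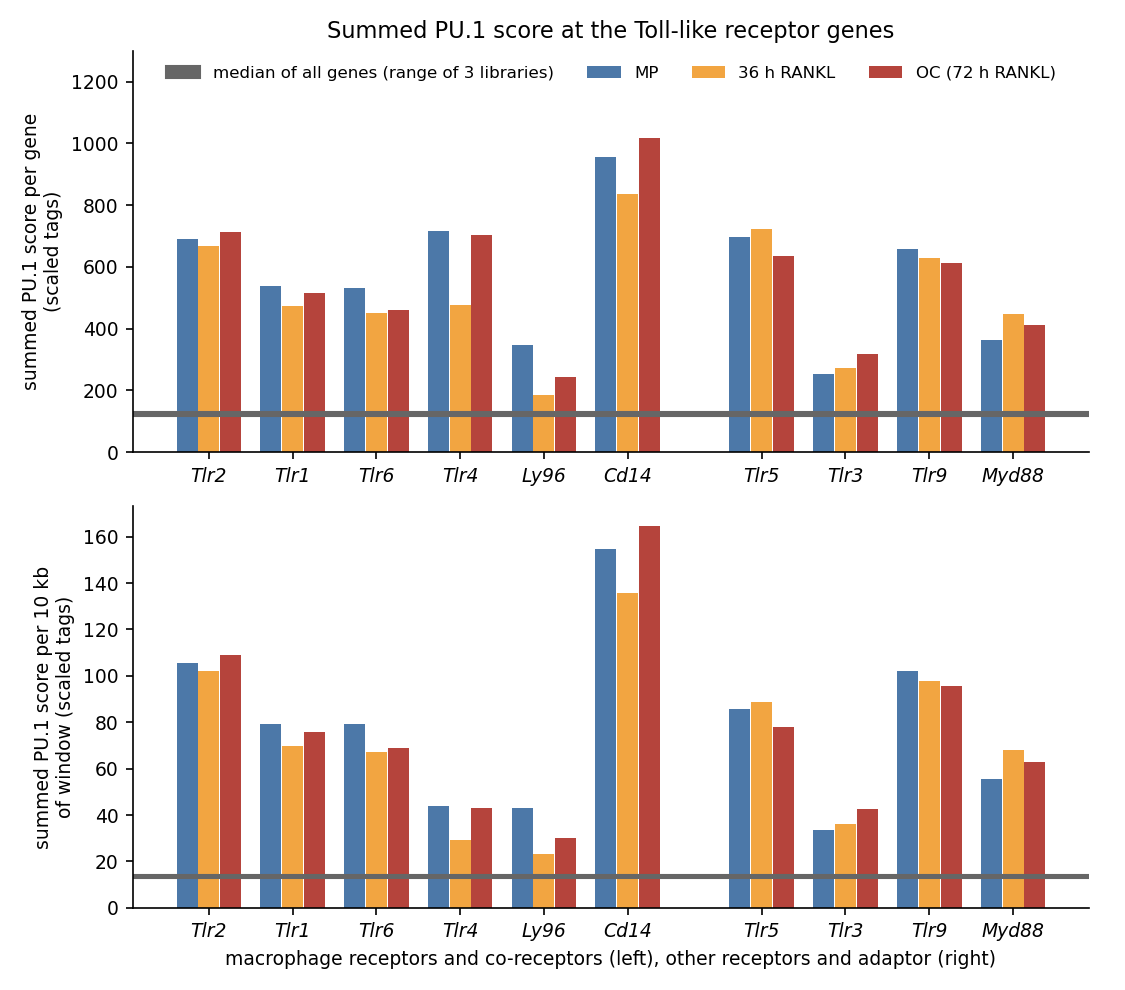
Summed PU.1 score for each of the 10 genes (top, scaled tags per gene) and the same divided by the length of its window (bottom, scaled tags per 10 kb), 1 bar per library with no replicate and so no error bar; the grey band spans the medians of all 22367 genes in the 3 libraries. Cd14 is highest and all bars exceed the band, and the bars of the left group (macrophage receptors and co-receptors) and the right group (the rest) cover overlapping ranges.

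The macrophage receptors and co-receptors did not separate from the rest. The median summed score of the 6 genes of the first group was 614 in MPs (range 348 to 955), 476 at 36 h (186 to 836) and 608 in OCs (242 to 1016). That of the 4 other genes was 509.9 (253 to 696), 538 (272 to 721) and 513 (319 to 634). The difference between the medians was 104 in MPs, -62.2 at 36 h and 94.8 in OCs, and the ranges overlapped in every library. Genes are not replicates, and no test was made. With the 7 member receptors alone the difference was negative in all 3 libraries, at -42.5, -154 and -5.9. The rest then held only Tlr3, Tlr5 and Tlr9. Tlr7, Tlr8, Tlr11, Tlr12 and Tlr13 are not members and were left out. Their summed scores in MPs were 460.5, 303.7, 136.5, 66.5 and 690.7. The difference with them included was not computed, so its sign holds for the member receptors only.

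Because the windows differ in length, levels of different genes were also compared per 10 kb of window. On that scale the first group had medians of 79.2, 68.4 and 72.2 in MPs, at 36 h and in OCs, and the rest 70.6, 78.5 and 70.6, beside 14.0, 13.0 and 14.3 over all genes. In MPs the order was Cd14 with a score per 10 kb of 155, Tlr2 with 106, Tlr9 with 102, Tlr5 with 85.7, Tlr6 with 79.2 and Tlr1 with 79.1, then Myd88 with 55.5, Tlr4 with 43.9, Ly96 with 42.9 and Tlr3 with 33.7. Tlr4, with the highest sum in MPs after Cd14, ranked below 7 of the other genes per length. In OCs the same scale gave Cd14 165, Tlr2 109 and Tlr9 95.5 at the top, and Tlr4 43.1, Tlr3 42.5 and Ly96 29.9 at the bottom. With 1 library per condition the spread of these levels is unknown, and neighbours in the order such as Tlr2 and Tlr9 were not shown to differ.

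The member peaks merged to 108 sites, of which 69 had a PU.1 peak in all 3 libraries, 17 in 2 and 21 in 1. A further site, 16976 bp downstream of the Myd88 start, had only a MITF peak. The macrophage group held 71 sites with 46 in all 3 libraries (64.8%) and the rest 37 with 23 (62.2%). Introns and intergenic sequence held 101 of the 108, and 73 were nearest to the start of a member gene. A PU.1 peak within 1 kb of the start was found for 8 members in MPs, 9 at 36 h and 9 in OCs, where 29.4%, 31.5% and 32.1% of all protein-coding genes had one. The exceptions were Tlr2 in all 3 libraries and Myd88 in MPs. The highest site itself lay within 1 kb of the start for Tlr4, Tlr6, Tlr9 and Ly96 in MPs and OCs, and for Tlr4, Tlr6 and Ly96 at 36 h, against 7.02%, 8.12% and 7.77% of all genes with a peak.

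**Figure D2:**
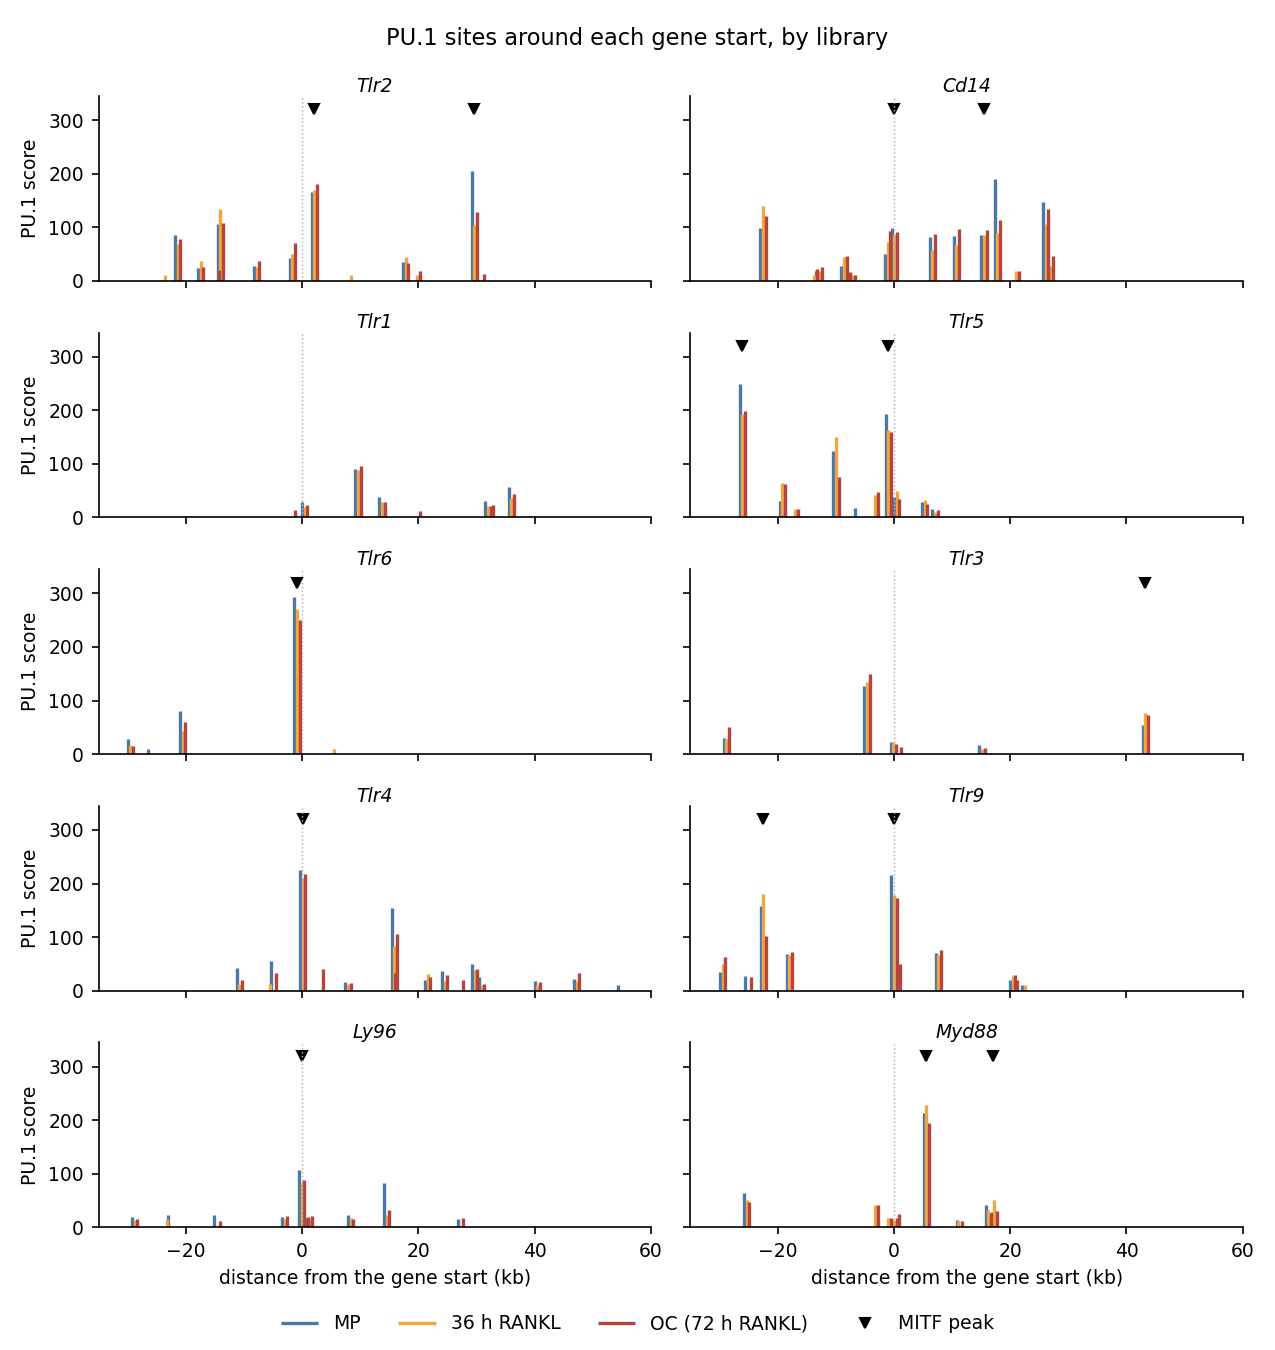
PU.1 score (scaled tags) of each site against its distance from the gene start (kb, positive in the direction of transcription), 1 panel per gene and 1 line per library, with the lines of a site set side by side for visibility; triangles mark sites with a MITF peak in any library. A site is drawn once, at the member gene with the nearest start, and 3 Tlr4 sites with scores of 10.3 to 29.4 lie beyond the axis. Tall lines stand at or near the start of Tlr4, Tlr6, Tlr9 and Ly96, and away from it at Tlr2, Tlr3 and Myd88.

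Sites listed before RANKL were mostly listed afterwards. Of the 82 member peaks in MPs, 77 had a PU.1 peak in OCs (93.9%, exact 95% interval 86.3 to 98.0%), as did 78.8% of all MP peaks. The highest of the 5 that had none scored 22.2. Of the 96 member peaks in OCs, 77 had one in MPs (80.2%, interval 70.8 to 87.6%), against 78% of all OC peaks. In the macrophage group 51 of 63 OC peaks (81.0%) had an MP peak, and in the rest 26 of 33 (78.8%). At the shared sites of these libraries the member peaks held a median of 52 tags over both libraries and all shared sites 39, and the part of this in the shares was not tested.

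Some peaks had no counterpart in another library. Of the 84 member peaks at 36 h, 15 had no MP peak (21.7% of all 36 h peaks had none), and of the 82 in MPs, 13 had no 36 h peak (26.1% of all). Of the 96 in OCs, 19 had no 36 h peak (24.7% of all) and 19 had no MP peak (22.0% of all). The highest of all these was the Tlr4 site 4921 bp upstream, at 54.6 in MPs and with no 36 h peak. The strongest without an MP peak were the Tlr5 site 3272 bp upstream and the site in Acaa1a near Myd88, both described above. A list holds only peaks that passed the caller, with lowest scores of 10.2 to 10.3, so a missing peak is not a level of 0 and no fold was computed.

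Shared sites were compared by an exact binomial test of their tags, two-sided, against the median ratio of all shared sites, with Benjamini-Hochberg adjustment over all of them, and a call needed both an adjusted p under 0.05 and a 2-fold difference. From MPs to 36 h, 1 of 69 member sites was called lower (0.712% of all 56340 shared sites) and 0 higher (0.341%). It was the intronic Ly96 site 14538 bp downstream, with 48 tags in MPs and 16 at 36 h, a log2 fold change of -1.67 against the median ratio (exact binomial test, adjusted p = 0.00659). Its sequence, with GAGGAA in capitals, was as follows.

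Ly96, intron, 14538 bp downstream of the start, chr1:16693000-16693150, plus strand: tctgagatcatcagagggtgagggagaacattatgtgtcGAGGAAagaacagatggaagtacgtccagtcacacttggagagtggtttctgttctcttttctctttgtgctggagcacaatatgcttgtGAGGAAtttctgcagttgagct

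Another 2 member sites had an adjusted p under 0.05 with less than 2-fold, which brings those past the adjusted p to 3 of 69, all lower at 36 h (1.38% of all shared sites were past it in either direction). These were the Cd14 site 17765 bp downstream, with 112 and 61 tags and a log2 fold change of -0.96 (exact binomial test, adjusted p = 0.00660), and the Tlr2 site 29623 bp downstream, with 120 and 70 tags and -0.86 (exact binomial test, adjusted p = 0.0114). All 3 sites were in the macrophage group, which held 45 of the 69 shared sites. With the ratio taken from the library sizes, 3 member sites were called lower at 36 h: those of Ly96 and Cd14 and a Tlr4 site 10777 bp upstream. By size alone, 1 member site was 2-fold higher (4.02% of all) and 3 were 2-fold lower (3.41% of all) at 36 h.

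From 36 h to OCs, 1 of 77 member sites was called lower (0.0483% of 58013) and 0 higher (0.0224%). This was the Tlr5 site 9960 bp upstream, with 102 tags at 36 h and 52 in OCs, a log2 fold change of -1.09 (exact binomial test, adjusted p = 0.0210). With the ratio set by library size this site was not called, nor was any other member site in this step. In MPs it held 73 tags, between the other libraries, and the step from MPs to 36 h was not called. Its sequence is given in the same way.

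Tlr5, intergenic, 9960 bp upstream, chr1:184874864-184875054, plus strand: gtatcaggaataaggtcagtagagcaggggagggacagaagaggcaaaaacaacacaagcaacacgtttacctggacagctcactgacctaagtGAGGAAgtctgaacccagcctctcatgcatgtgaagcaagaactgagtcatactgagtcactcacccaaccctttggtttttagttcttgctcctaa

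The Tlr9 site 22497 bp upstream also had an adjusted p under 0.05 in that step, as the other of 2 member sites past it (0.0776% of all in either direction), with 122 and 70 tags and a log2 fold change of -0.92, short of 2-fold (exact binomial test, adjusted p = 0.0319). It is the Tlr9 site printed above with the composite element. By size alone 1 member site was 2-fold higher (2.01% of all) and 1 was 2-fold lower (2.61%) in OCs than at 36 h.

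From MPs to OCs, 0 of 77 member sites were called in either direction (0.0682% of 60100 were called higher and 0.0882% lower), and 0 were past the adjusted p alone (0.186% of all). At an unadjusted p under 0.05 in the same exact binomial test there were 11, with 4 higher and 7 lower in OCs, beside 7.84% of all shared sites. The smallest adjusted p was that of the Ly96 intronic site, with 48 and 22 tags and a log2 fold change of -1.32 (exact binomial test, adjusted p = 0.0775). By size alone 1 member site, 19230 bp upstream of Tlr5, was 2-fold higher (3.00% of all), with scores of 30.7 in MPs and 63.1 in OCs, and 3 were 2-fold lower (2.38% of all). The peaks of the PU.1 36 h list are 190 bp wide in the median and those of the other PU.1 lists 150 bp, so that comparisons with 36 h rest on the median ratio to set the widths level.

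**Figure D3:**
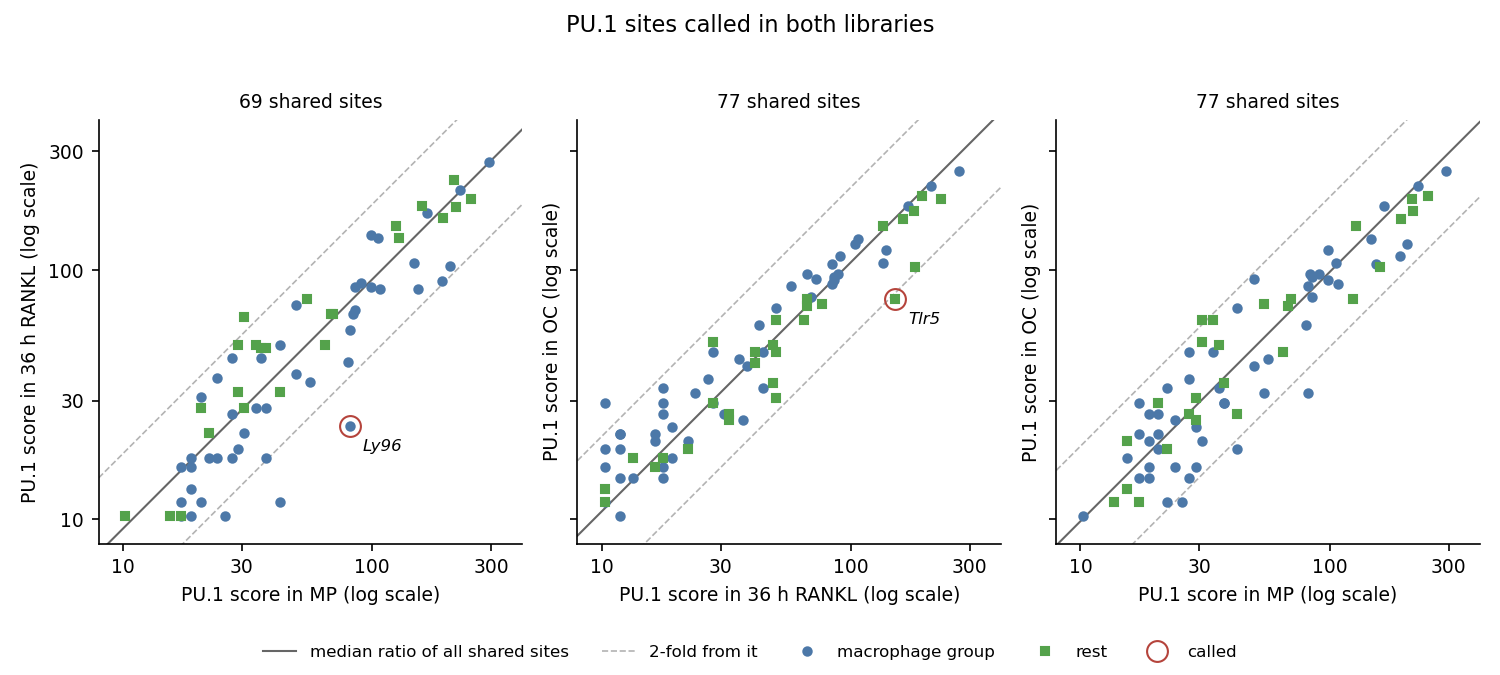
PU.1 score (scaled tags, log scales) of the member sites called in both libraries of each comparison, with circles for the macrophage group and squares for the rest; the solid line is the median ratio of all shared sites and the dashed lines lie 2-fold from it. Most of the 69, 77 and 77 sites lie between the dashed lines, and the ringed points are the called sites, in an intron of Ly96 and upstream of Tlr5.

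Summed over the sites of a gene, none of the 10 members was called in any of the 3 comparisons where a call needed an adjusted p under 0.05 and a difference of 1.5-fold (from MPs to 36 h 1.16% of 17133 genes were called higher and 1.15% lower, from 36 h to OCs 0.0464% and 0.0696%, and from MPs to OCs 0.353% and 0.295%). Nearest to a call was Tlr4 from MPs to 36 h, with 381 tags and 315 over 12 sites and a log2 fold change of -0.34 (exact binomial test, adjusted p = 0.0433), and this was the 1 member past the adjusted p in any comparison (5.40% of all genes were past it in that step in either direction, 0.238% from 36 h to OCs and 1.35% from MPs to OCs). Ly96 followed in the same step with 157 and 116 tags over 6 sites and -0.50 (exact binomial test, adjusted p = 0.0682). At an unadjusted p under 0.05 in this test, Ly96 and Tlr4 passed from MPs to 36 h, both lower (19.2% of all genes in either direction), Tlr5, Tlr9 and Myd88 from 36 h to OCs, all lower in OCs (9.71%), and from MPs to OCs Ly96 and Tlr5 (lower) and Tlr3 (higher), beside 13.0%.

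The median log2 fold change from MPs to 36 h was -0.09 over the 6 genes of the macrophage group and 0.18 over the 4 others. In the next step, from 36 h to OCs, the medians were 0.03 and -0.25, and from MPs to OCs they were -0.17 and -0.11, beside 0.03, 0.00 and 0.03 over all genes tested. From MPs to 36 h Tlr3, Tlr5, Tlr9 and Myd88 had positive values of 0.25, 0.11, 0.18 and 0.19, and in the macrophage group Tlr2 alone was positive, at 0.02. The sums share Tlr1 and Tlr6 sites and the comparisons share libraries, so these values are a description of the 3 libraries.

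MITF peaks were found at 9 of the 10 genes in MPs (24.5% of all protein-coding genes had one), 7 at 36 h (17.9%) and 10 in OCs (21.6%). The macrophage group held 6, 4 and 6 of the peaks and the rest 6, 2 and 5. Of the 14 sites with a MITF peak, 6 had one in all 3 libraries, at Tlr2, Tlr4, Tlr6 (counted for Tlr1 too), Ly96, Tlr9 and Myd88. In MPs 11 of the 12 MITF peaks overlapped a PU.1 peak from the matching time (91.7%, exact 95% interval 61.5 to 99.8%), at 36 h 6 of 6 and in OCs 11 of 11, beside 97.9%, 93.8% and 93.3% of all MITF peaks. Conversely, 13.4%, 7.1% and 11.5% of member PU.1 peaks overlapped a MITF peak, where 6.95%, 4.62% and 5.38% of all PU.1 peaks did. The exact 95% intervals of the member shares were 6.9 to 22.7%, 2.7 to 14.9% and 5.9 to 19.6%, and that of OCs alone lay wholly above the share of all peaks. Member peaks were not matched to all peaks for PU.1 score, and the part of score in these shares was not tested.

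The largest MITF value was at the start of Tlr4. There the MITF score was 16.6 in MPs, 116 at 36 h and 18.3 in OCs, and 2.99% of all MITF peaks at 36 h scored as high. At 36 h it stood 6.98 times above MPs, where the median ratio of all shared MITF sites was 1.63, and the PU.1 score of the same site was 225 in MPs and 209.9 at 36 h. The MITF 36 h list has peaks of 150 to 1387 bp while the other MITF lists have 150 bp throughout, and this peak was 304 bp wide. Per 100 bp of peak it held 39.1 tags at 36 h and 10.7 in both MPs and OCs.

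The other 13 sites had MITF scores of at most 50.6, and 8 of them had no MITF peak at 36 h. The site 882 bp upstream of Tlr6 scored 23.9, 50.6 and 27.4, that in the Tlr2 intron 22.9, 47.7 and 16.0, and that 22497 bp upstream of Tlr9 12.5, 38.9 and 10.3. The Myd88 site 5548 bp downstream scored 15.6, 35.0 and 12.6. At these 4 sites and at Tlr4 the 36 h library was the highest, in a list whose shared sites had median score ratios of 1.63 for 36 h over MPs and 0.55 for OCs over 36 h. At Ly96, 85 bp upstream, it was not: the scores were 17.7, 14.6 and 11.4, in a peak of 150 bp in all 3 lists.

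Against the median ratio, 1 of 6 shared member sites was 2-fold higher at 36 h than in MPs (11.7% of 2509) and none lower (15.7%), and 2 of 6, at Tlr4 and Tlr9, were 2-fold lower in OCs than at 36 h (10.3% of 2349) and none higher (14.1%). From MPs to OCs, where the widths match, 1 of 9 was 2-fold higher (1.37% of 2844) and none lower (2.50%). This was the Tlr2 site 29623 bp downstream, with MITF scores of 10.4 and 19.4, or 10 and 17 tags. No test was made on MITF scores. Of the 12 member MITF peaks in MPs, 6 had none at 36 h (53.6% of all) and 3 had none in OCs (47.5%). Of the 6 at 36 h, 0 lacked a peak in MPs (29.1% of all) and 0 in OCs (33.6%). Of the 11 in OCs, 5 had none at 36 h (47.1% of all) and 2 had none in MPs (36.0%).

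The other MITF peaks scored between 9.1 and 13.5, in lists whose lowest scores were 9.1 to 9.7. Tlr5 had MITF peaks in MPs and OCs at its sites 26075 bp upstream (13.5 and 10.3) and 938 bp upstream (9.3 and 10.3). The start of Tlr9 had one in MPs only, at 11.4. Cd14 had one in MPs at 11.4, 15507 bp downstream, and one in OCs at 9.1, at its start. Tlr3 had a single MITF peak, in OCs at 11.4, in an intron of Fam149a. The peak without PU.1, downstream of Myd88, scored 9.3 in MPs.

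**Figure D4:**
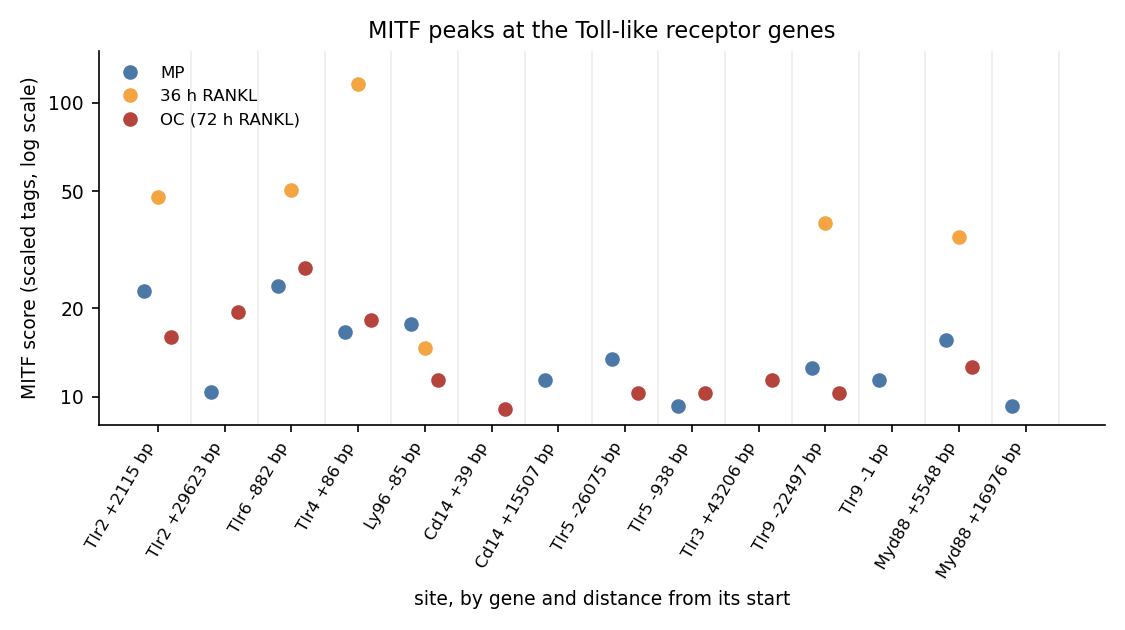
MITF score (scaled tags, log scale) at the 14 sites with a MITF peak, by gene and distance from its start (bp), 1 point per library that lists a peak; a missing point means that no peak was listed. The 36 h points at Tlr2, Tlr6, Tlr4, Tlr9 and Myd88 lie above those of MPs and OCs, up to 116 at the Tlr4 start, and the other points lie between 9.1 and 27.4.

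E-boxes are shown at a pair of the MITF sites, Ly96 upstream of the start and the Tlr2 intron, each listed by MITF in all 3 libraries. The pair does not stand for the other MITF sites, as the counts below show. GAGGAA and all CANNTG letters are in capitals, on the plus strand of mm9.

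Ly96, 85 bp upstream of the start, chr1:16678377-16678527, plus strand: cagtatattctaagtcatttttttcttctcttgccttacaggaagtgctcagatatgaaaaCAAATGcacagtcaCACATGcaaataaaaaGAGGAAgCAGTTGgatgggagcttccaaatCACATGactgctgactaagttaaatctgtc
Tlr2, 2115 bp downstream of the start, chr3:83643499-83643649, plus strand: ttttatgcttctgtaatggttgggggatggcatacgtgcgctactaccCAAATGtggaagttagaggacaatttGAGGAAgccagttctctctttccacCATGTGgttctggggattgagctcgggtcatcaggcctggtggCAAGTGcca

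The Ly96 stretch held 4 E-boxes, 2 of them CATGTG on either strand, and the Tlr2 stretch held 3, 1 of them CATGTG. The stretch 882 bp upstream of Tlr6, with the highest member MITF scores in MPs and in OCs, held 2 GAGGAA and 0 E-boxes. Of the 12 member MITF peaks in MPs, 10 held CANNTG within 100 bp of the centre (83.3%, exact 95% interval 51.6 to 97.9%) and 10 held GAGGAA, where 63.7% and 69.9% of all MITF peaks in MPs did. In OCs the counts were 7 and 9 of 11, beside 61.8% and 70.1%. At 36 h they were 4 and 6 of 6, beside 61.2% and 71.4%. CATGTG stood in 2 of 12 member MITF peaks in MPs, 2 of 6 at 36 h and 2 of 11 in OCs. Those were the peaks of the printed pair. The shares of all MITF peaks were 14.5%, 12.9% and 13.4%. CACGTG stood in 0 of 12, 0 of 6 and 1 of 11, beside 2.9%, 2.9% and 2.4%.

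Other genes of the pathway were taken from a list of 44, which covers the remaining receptors, chaperones, adaptors, kinases and inhibitors. PU.1 peaks were found at 44 of them in MPs, 43 at 36 h and 43 in OCs, and their median summed score was 316, 317 and 352, above the all-gene medians and below those of the 10 members (597, 476 and 564). MITF peaks were found at 20, 17 and 19 of the 44. The highest sums in OCs were those of Pik3ap1 (BCAP, an adaptor of phosphoinositide 3-kinase) with 1602, 1466 and 1461 in MPs, at 36 h and in OCs, of the kinase Irak2 with 1169, 894 and 1119, and of Cd180 (RP105, a Toll-like receptor homologue) with 1177, 862 and 1039.6.

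Of the 43 pathway genes tested per comparison, 1 was called higher from MPs to 36 h (1.16% of all genes) and 2 lower (1.15%). From 36 h to OCs 1 was called higher (0.0464%) and 0 lower (0.0696%). From MPs to OCs 0 were called higher (0.353%) and 0 lower (0.295%). Map3k7 (TAK1, the kinase that activates the IκB kinases) was lower at 36 h, with 103 tags and 38 over 2 sites and a log2 fold change of -1.50 (exact binomial test, adjusted p = 1.25e-05). It was higher again in OCs, with 49 tags and 109 over 3 sites and 1.05 (exact binomial test, adjusted p = 0.0190). The ubiquitin ligase Peli1 was lower at 36 h, with 148 and 103 tags and -0.59 (exact binomial test, adjusted p = 0.0359). Traf3, an adaptor towards interferon genes, was higher at 36 h, with 131 and 215 tags and 0.65 (exact binomial test, adjusted p = 0.00350). Both steps of Map3k7 share the 36 h library. Past the adjusted p with less than 1.5-fold, Cd36 was lower than in MPs at 36 h and in OCs. Its log2 fold changes were -0.51 and -0.44 (exact binomial test, adjusted p = 2.72e-05 and 0.00100). Unc93b1 was higher in both, with 0.34 and 0.39 (exact binomial test, adjusted p = 0.0118 and 0.00588). Ripk1 was lower at 36 h, with -0.37 (exact binomial test, adjusted p = 0.0386). Of all genes, 5.40% from MPs to 36 h and 1.35% from MPs to OCs were past the adjusted p.

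The genes elsewhere whose summed scores were most like those of Tlr2 over the 3 PU.1 and 3 MITF libraries were Afg3l2, Ctu1 and Cbfa2t2, at Euclidean distances of 0.15, 0.22 and 0.23 on the scale of log2(score + 10). For Tlr4 they were Klf3, Ubap2l and Kcnj10 at 0.41, 0.56 and 0.59. Klf3 had summed MITF scores of 18.7, 122 and 21.7 beside 16.6, 116 and 18.3 for Tlr4. These scores were part of the distance by which Klf3 was chosen, so their likeness follows from the choice. Among markers of cell types, the 5 macrophage markers (Csf1r, Itgam, Emr1, Fcgr1 and Cd68) had summed PU.1 scores of 753 to 998 in MPs. The 3 fibroblast markers had 0 to 54.5, with Col3a1 at 0 in all 3 PU.1 libraries. B cell markers had 51.2 to 150.2. Of the T cell markers Cd4 had 703, Cd3e 20.5 and Lck 70.0. High scores in MPs were also found at Ctsk of osteoclasts (1129), Apoa2 of hepatocytes (654) and Ltf of neutrophils (624). Other markers of those types were lower, with the ranges given below. These are peaks and not RNA levels. In MPs every macrophage marker was above all the other markers except Ctsk. At 36 h the macrophage marker Fcgr1 had 486, below Cd4 with 605. The scores thus did not fully sort the markers by cell type.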

How the data were processed

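Bone marrow myeloid cells were profiled by ChIP-Seq in 7 libraries. Per the labels and the methods of the study, the authors used CASAVA 1.8 and Bowtie2 for base calls and for alignment to mm9, and HOMER for peaks, and the versions of Bowtie2 and HOMER are not given in the sources used here. The unit of the deposited lists is a peak score, the tags of a peak scaled by the authors to a common library size. Scores were whole multiples of 1 value in each list (to within 0.0643), which gave the tags. If HOMER's default scale of 10000000 tags was used, which is assumed, the PU.1 libraries held 5860000, 6770000 and 6810000 tags (MPs, 36 h, OCs), the MITF libraries 9630000, 10270000 and 8760000, and IgG 3120000. Depth limits what can be called: the weakest PU.1 peak held 6 or 7 tags. Intervals and tests cover counting error only.

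Genes and exons came from GENCODE vM1 and sequence from NCBIM37, the same build as mm9. A site counted as shared at an overlap of 1 bp, taking mutual nearest pairs. Distances run from the start of the gene's main transcript to the peak centre. The tag ratio of each pair of libraries was set by the median over shared sites, and per gene by the summed tags of all genes. The exact binomial test was checked on simulated data that held counting error alone, so the check does not cover any variation beyond it. Python 3.11.15, numpy 2.4.6, scipy 1.17.1, pandas 2.3.3 and samtools 1.23.1 were used.

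The 10 genes, the pathway list and the marker lists were chosen with earlier results of these data known. Named were all 10 members, each one's highest site, every MITF peak and every called site, the 3 pathway genes with the highest OC sum, any gene called, and the 3 genes most like Tlr2 and Tlr4. Neutrophil, osteoclast and hepatocyte markers were computed likewise, and their summed PU.1 scores in MPs were 135 to 624, 23.9 to 1129 and 150.1 to 654. Further sites were named after their values were seen, to show where libraries differed. Other windows, groupings, thresholds, overlaps, ratios and motif settings were tried. The authors' nearest-gene columns were not used here.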

Additional observations from a re-analysis of the deposited data

How the results depend on the processing

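No paired analysis was possible because each condition had 1 library, and for the same reason no library could be left out. Of 89 values recomputed under other settings, 60 kept their direction and, roughly, their size, 24 moved and 5 reversed. Values counted as kept include the change from 82 to 109 PU.1 peaks in MPs with 50 kb windows. They also include that from 4 to 6 sites past 2-fold from MPs to 36 h with the ratio set by library size. The difference between the macrophage group and the rest was the least stable value. In MPs (104) it became 14.7 with 10 kb windows, 293 with Tlr9 in the macrophage group, 35.9 with peaks nearest to the gene's own start, and -42.5 with the 7 receptors alone. At 36 h (-62.2) the same settings gave -34.7, 30.7, 13.2 and -154. In OCs (94.8) they gave -34.5, 201, 46.9 and -5.9, and 47.0 with gene ends from the transcript with the longest coding sequence, a setting chosen after seeing the data. The cause was not tested. Windows of 10 kb left 48, 49 and 57 PU.1 peaks (MPs, 36 h, OCs) and 7 MITF peaks in both MPs and OCs. Counting peaks nearest to a member start left 54 PU.1 peaks in MPs, 57 at 36 h and 67 in OCs. A threshold of 2 times the lowest score left 53 PU.1 peaks at 36 h and 2 and 3 MITF peaks in MPs and OCs, raised the share of OC peaks with an MP peak to 88.4%, and lowered the 2-fold counts to 2, 1 and 2 (from 4, 2 and 4) in the 3 comparisons. With the ratio set by library size, 3 sites in place of 1 were called from MPs to 36 h, and from 36 h to OCs 0 in place of 1, with 1 in place of 2 by size alone. The call at the Tlr5 site thus rests on the ratio used.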
